A study of Mus musculus with 7 samples.

Results

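The imprinted Dlk1-Dio3 cluster of distal mouse chromosome 12 was examined in ChrRNA-seq, the sequencing of RNA that stays bound to chromatin and is therefore rich in unspliced transcripts. Its 6 genes, Dlk1, Meg3, Rtl1, Rian, Mirg and Dio3, were taken by name from the 22556 genes counted in each library. The cells were undifferentiated female mouse embryonic stem cells (mESCs), an F1 hybrid between 129 (called Dom) and Mus musculus castaneus (called Cast). A doxycycline-inducible TetOn promoter replaced the promoter of Xist, the RNA that silences the X chromosome carrying it, on the Dom X in iXist-ChrX-Dom (4 libraries) or on the Cast X in iXist-ChrX-Cast (3 libraries). By the sample titles both lines had received doxycycline for 10 days, at 1 µg/mL. For replicates 3 and 4 of iXist-ChrX-Dom the description and the deposited column name read d1 instead, and the titles were followed. Each line is given as 1 clone of the same hybrid parent, and no uninduced library was analysed here. For replicates 1 and 2 of iXist-ChrX-Cast the file names carry a clone name (C8H8) other than the one on replicate 3 (C7H8). The labels and the deposited column names give C7H8 for all 3 libraries, and that they come from 1 clone rests on these. The cells were grown on mitomycin-inactivated fibroblast feeders, which were depleted by pre-plating before harvest. The labels do not say which strain was the mother, so no allele is called maternal or paternal here.

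This cluster is a textbook case of genomic imprinting, in which the copy of a gene that is used depends on the parent it came from. In the mouse the protein-coding genes Dlk1, Rtl1 and Dio3 are normally used from the paternal chromosome, and the non-coding Meg3, Rian and Mirg from the maternal one. The non-coding genes lie in a row on 1 strand, are thought to be read largely as 1 long transcript, and host small nucleolar RNAs and many microRNAs. In cultured mESCs the state of the locus is known to vary between lines.

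In mm10 coordinates as counted, Dlk1 spans chr12:109452822-109463336 on the plus strand, and Meg3 follows at chr12:109540995-109571729. Rtl1 lies on the minus strand at chr12:109590168-109595403. Rian occupies chr12:109603944-109661711, Mirg chr12:109734980-109749457 and Dio3 chr12:110279229-110281097, all on the plus strand. The counts cover whole transcripts, introns included. Another 3 annotated long RNAs lie in the interval, namely 6430411K18Rik opposite Rtl1, 3110009F21Rik, and Dio3os next to Dio3.

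The promoter of Meg3 and a few hosted microRNAs are shown first, because the main result of the cluster is how strongly its non-coding strand was used. RefSeq (GRCm38.p6, the assembly of mm10) places the Meg3 promoter at chr12:109540746-109541045, plus strand, from 250 bases before to 50 after the first annotated start. Capitals mark the cAMP response element TGACGTCA, which begins at position -57 from the start, and 2 overlapping matches to TATAAA, read on either strand, at -29 and -25.
Meg3 promoter: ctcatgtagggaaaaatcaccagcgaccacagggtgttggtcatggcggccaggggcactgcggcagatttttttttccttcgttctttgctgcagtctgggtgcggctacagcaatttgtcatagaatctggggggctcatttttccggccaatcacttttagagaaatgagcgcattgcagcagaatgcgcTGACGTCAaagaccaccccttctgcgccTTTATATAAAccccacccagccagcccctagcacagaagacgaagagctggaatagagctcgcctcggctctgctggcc
Of 32851 RefSeq promoters of the same length, 1.79% held TGACGTCA, 13.6% held TATAAA on either strand, and 0.17% held both. The Meg3 window held 13 CG dinucleotides, beside a median of 7 over all promoters. The windows of Rian and 6430411K18Rik held 0, that of Dlk1 9, that of Mirg 10, that of Dio3 25 and that of Dio3os 53. A match is a description of the sequence and not evidence of a bound factor.

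RefSeq lists 58 microRNA hairpins between the start of Dlk1 and the end of Dio3, of which 54 lie on the plus strand, the strand of Meg3, Rian and Mirg. Mirg as annotated in the counts holds 10 of them, Rian 3 and Meg3 1, and 28 lie in the gap between Rian and Mirg, where no gene was counted. Another 6 lie inside Rtl1 on the opposite strand, so that their mature forms are complementary to Rtl1 RNA. ChrRNA-seq libraries do not measure mature microRNAs, and the sequences are shown to say what the counted hosts encode. Capitals mark the seed, bases 2 to 8, and these 5 lie opposite Rtl1.
miR-431-5p (chr12:109590459-109590479, plus strand): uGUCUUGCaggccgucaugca
miR-433-3p (chr12:109591781-109591802, plus strand): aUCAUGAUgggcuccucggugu
miR-127-3p (chr12:109592888-109592909, plus strand): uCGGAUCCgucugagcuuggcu
miR-434-3p (chr12:109594565-109594586, plus strand): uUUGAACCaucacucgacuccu
miR-136-5p (chr12:109595331-109595352, plus strand): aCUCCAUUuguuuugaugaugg
None of these 5 shared its seed with another mature microRNA of the interval.

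Over the interval, 113 named mature microRNAs carried 104 seeds, and 9 seeds were shared by 2 names each. The pairs that involve Mirg or Rian are shown, since a shared seed can mean shared targets. The first pair lies within Mirg.
miR-453 (chr12:109735669-109735692, plus strand): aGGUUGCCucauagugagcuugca
miR-496a-5p (chr12:109739132-109739152, plus strand): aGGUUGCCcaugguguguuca
In the second pair miR-410-5p lies within Mirg and miR-494-5p between Rian and Mirg.
miR-410-5p (chr12:109743729-109743749, plus strand): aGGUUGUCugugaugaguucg
miR-494-5p (chr12:109715334-109715355, plus strand): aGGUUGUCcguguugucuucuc
In the third pair miR-370-5p lies within Rian and miR-1193-3p between Rian and Mirg.
miR-370-5p (chr12:109618270-109618289, plus strand): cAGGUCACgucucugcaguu
miR-1193-3p (chr12:109715750-109715770, plus strand): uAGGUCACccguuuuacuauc

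The 7 libraries held 14877384 to 24309806 counted fragments, and 44.2% to 46.4% of them could be assigned to an allele. Replicates 1 and 2 and replicates 3 and 4 carry different styles of file name, and they are called the first and second sample set below, although the labels state no batch. The summed level of 8 mESC markers was 1346 to 1663 CPM (counts scaled to library size) in iXist-ChrX-Dom and 1542 to 1674 in iXist-ChrX-Cast. The summed level of 10 fibroblast markers was 64.3 to 80.2 and 62.7 to 71.5, that of 6 neural markers 33.7 to 56.3 and 28.5 to 32.6, and that of 5 endoderm markers 208 to 323 and 246 to 327, in the same order. None of these 4 lists had a gene called between the lines by edgeR on total counts, and Sox1 was at 0 in every library. At an unadjusted p under 0.05 were 3 mESC genes and 1 neural gene. DESeq2 called 2 and 1 of them, respectively, among 1098 of the 15186 genes tested. With the replicate number as a block, 11.8% of all genes were called. The mESC genes Klf4 and Tfcp2l1 were then lower and the neural genes Nes and Pax6 higher in iXist-ChrX-Dom. The lists were not uniform, as the log2 difference with the block was 0.29 for the mESC gene Zfp42 and -0.01 for the neural gene Tubb3, both uncalled. The part of these genes in the results below was not tested.

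The cluster was split between 3 abundant non-coding RNAs and 3 nearly silent protein-coding genes. Rian, which hosts small nucleolar RNAs, was the third most abundant gene by fragment count in every library. Its counts were 97360, 110199, 85150 and 76715 in replicates 1 to 4 of iXist-ChrX-Dom. They were 72238, 98376 and 82542 in replicates 1 to 3 of iXist-ChrX-Cast. Meg3 ranked between 56 and 200 and Mirg between 55 and 181 by count. Together Meg3, Rian and Mirg took 0.567% to 0.666% of all counted fragments.

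Meg3, a long non-coding RNA studied as a growth suppressor, was counted 16086, 19597, 17885 and 21206 times in iXist-ChrX-Dom and 10106, 12729 and 14753 times in iXist-ChrX-Cast. After scaling by library size these were 705, 796, 953 and 1081 CPM, against 710, 648 and 739. Replicates 2 to 4 of iXist-ChrX-Dom were above all 3 libraries of iXist-ChrX-Cast, and replicate 1 lay among them. The mean was 884 ± 167 (SD, n = 4) against 699 ± 46.2 (SD, n = 3) CPM.

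Mirg, the most distal microRNA host of the row, was counted 22715, 25278, 15142 and 12715 times in iXist-ChrX-Dom, or 995, 1027, 807 and 648 CPM. In iXist-ChrX-Cast it was counted 13333, 21751 and 17053 times, or 937, 1108 and 854 CPM. The groups overlapped, and the 3 lowest scaled values were those of the second sample set. For Rian the means were 4298 ± 282 (SD, n = 4) and 4740 ± 528 (SD, n = 3) CPM, and the groups overlapped as well.

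The protein-coding genes were detected at a few CPM or fewer. Dlk1, a membrane protein of the Notch ligand family that restrains adipocyte differentiation, had 50, 50, 23 and 41 fragments in iXist-ChrX-Dom and 27, 41 and 36 in iXist-ChrX-Cast. Dio3, the deiodinase that inactivates thyroid hormone, had 19, 25, 46 and 36 against 17, 50 and 54. Rtl1, a retrotransposon-derived gene needed in the placenta, had 35, 9, 5 and 2 against 2, 18 and 5. The groups overlapped for all 3 genes.

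**Figure D1:**
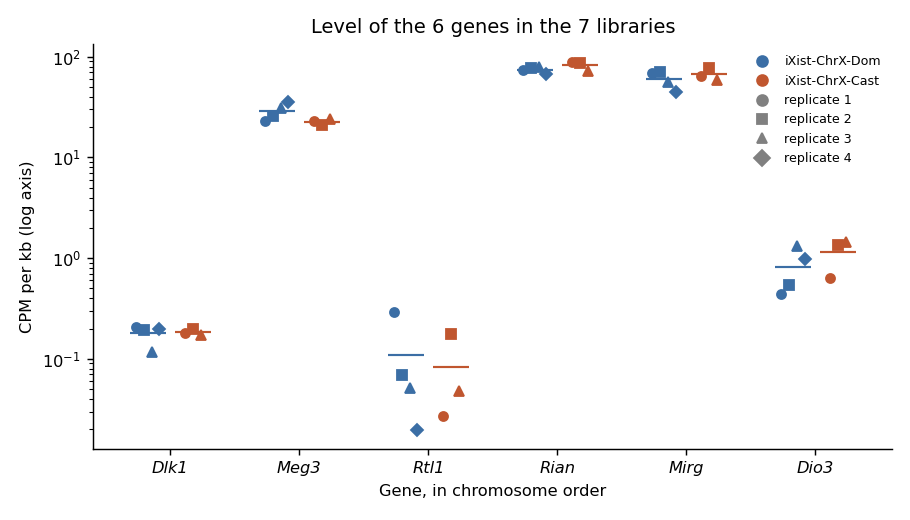
Level of the 6 genes in CPM per kilobase of counted length (log axis), in chromosome order. Points are libraries, with colour for the line and shape for the replicate, and bars are the means of the line. Meg3, Rian and Mirg sit between 21.1 and 87.9, and Dlk1, Rtl1 and Dio3 at 1.45 or less.

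Per kilobase of counted length, the mean over the 7 libraries was 77.7 for Rian, 62.9 for Mirg and 26.2 for Meg3. It was 0.962 for Dio3, 0.181 for Dlk1 and 0.098 for Rtl1. Rian was above Mirg in every library and Mirg above Meg3 in every library. Dio3 was above Dlk1 and Dlk1 above Rtl1 on average, but Rtl1 exceeded Dlk1 in replicate 1 of iXist-ChrX-Dom, at 0.293 against 0.208.

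Rtl1 lies opposite a much more abundant RNA. 6430411K18Rik, counted on the other strand within Rtl1, had 2151 to 5101 fragments per library. The Rtl1 count came to 0.901%, 0.176%, 0.182% and 0.093% of that count in iXist-ChrX-Dom and to 0.088%, 0.458% and 0.164% in iXist-ChrX-Cast. Rtl1 was highest in replicate 1 of iXist-ChrX-Dom and replicate 2 of iXist-ChrX-Cast, 2 of the 3 libraries with the highest 6430411K18Rik CPM. Counting was strand-specific, and how much of the Rtl1 count is misassigned antisense RNA was not tested.

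The first comparison asked whether the line went with a different level of the cluster. The lines differ in the X chromosome that carried induced Xist and in the clone, and the parts of these cannot be told apart here. edgeR's quasi-likelihood test with Benjamini-Hochberg adjustment tested 15186 genes, 5 members among them, and called 0 of the 5, beside 2.92% of all genes called. Rtl1 did not pass the expression filter. Meg3 was the only member with an unadjusted p under 0.05, and DESeq2 called no member either.

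For Meg3 the log2 difference, iXist-ChrX-Dom minus iXist-ChrX-Cast, was 0.34 (SE 0.15, edgeR adjusted p = 0.27). Rian gave -0.14 (SE 0.12, edgeR adjusted p = 0.605) and Mirg -0.15 (SE 0.16, edgeR adjusted p = 0.701). Dlk1 gave -0.03 (SE 0.25, edgeR adjusted p = 0.973) and Dio3 -0.53 (SE 0.40, edgeR adjusted p = 0.555). The standard errors leave room for sizeable differences in Dlk1 and Dio3, whose counts are low. With the replicate number as a block, which raised the share of all genes called to 11.8%, still 0 of the 5 members were called.

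The relative level of the 3 non-coding RNAs was not fixed. The Mirg to Meg3 ratio, both per kilobase, was 3.00, 2.74, 1.80 and 1.27 in iXist-ChrX-Dom and 2.80, 3.63 and 2.45 in iXist-ChrX-Cast. The Rian to Meg3 ratio was 3.22, 2.99, 2.53 and 1.92 against 3.80, 4.11 and 2.98. In both ratios the second sample set was lower than the first within each line. The Rian to Meg3 ratio was lower in iXist-ChrX-Dom without overlap within each sample set, and overlapped across sets. In the second set iXist-ChrX-Cast is represented by replicate 3 alone, and how often other pairs of genes did so was not counted. The Mirg to Meg3 ratio overlapped between the lines within the first set. The Mirg to Rian ratio moved less, between 0.661 and 0.931 over all 7 libraries.

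**Figure D2:**
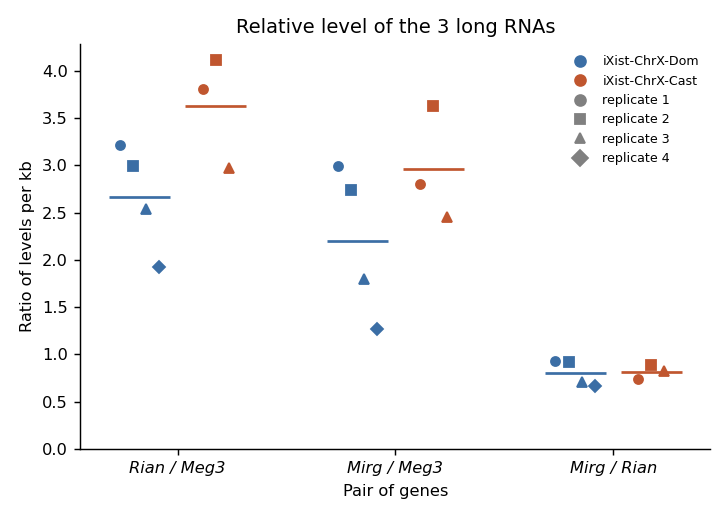
Ratios between the levels of Meg3, Rian and Mirg, each per kilobase of counted length, in every library (colour for the line, shape for the replicate, bars for the mean of the line). Within each line, replicates 1 and 2 lie above replicates 3 and 4 for both ratios to Meg3.

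Among all tested genes, the pattern of Meg3 over the 7 libraries was closest to those of Sae1 and Epn2, with root mean square differences of 0.036 and 0.049 in centred log2 CPM. Rian was closest to Yme1l1 and Pask (0.016 and 0.035) and Mirg to Cstf2t and Tceanc (0.05 and 0.054). Dlk1 was closest to Fbxw4 and Avil (0.071 and 0.073) and Dio3 to Adora1 and Foxj1 (0.143 and 0.162). No member was the nearest neighbour of another. From Rian the distance to Mirg was 0.18, which placed Mirg at rank 3749 of 15185, and from Meg3 the distance to Rian was 0.339, at rank 8428. With 15185 genes and 7 libraries, a close match carries little weight.

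The second comparison asked how the 2 alleles shared the output, with the other genes of distal chromosome 12 (start at 80 Mb or beyond) as the reference. That reference matters because it was itself skewed in these cells. The median Cast share, the percentage of allelic fragments assigned to Cast, was 71.0% over 237 distal genes with at least 10 allelic fragments in over 80% of libraries. It was 49.0% over 256 genes of chromosome 12 before 80 Mb and 47.4% over 12003 genes of the other autosomes. The library medians of the distal genes lay between 70.4% and 71.6% in iXist-ChrX-Dom and between 71.0% and 71.9% in iXist-ChrX-Cast.

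Against that reference the non-coding RNAs were still more Cast-biased and Dlk1 was less. Rian had a Cast share of 82.7%, 81.4%, 84.9% and 84.8% in iXist-ChrX-Dom and 83.9%, 84.9% and 89.2% in iXist-ChrX-Cast. Each of these rests on 37421 to 57950 allelic fragments, with Wilson 95% intervals such as 81.1% to 81.7% in replicate 2 of iXist-ChrX-Dom and 83.5% to 84.2% in replicate 1 of iXist-ChrX-Cast, the widest. The libraries thus differed by more than the counting error of independent fragments, which is all that the intervals here cover. Fragments copied by PCR are not independent, so the intervals may be too narrow.

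Meg3 had a Cast share of 83.8%, 83.2%, 85.1% and 86.1% in iXist-ChrX-Dom and 84.7%, 85.6% and 89.3% in iXist-ChrX-Cast, from 3083 to 6861 allelic fragments. Mirg had 84.7%, 83.4%, 87.0% and 86.4% against 86.1%, 86.8% and 90.3%, from 8515 to 16262. All 3 RNAs were highest in replicate 3 of iXist-ChrX-Cast and lowest in replicate 2 of iXist-ChrX-Dom.

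**Figure D3:**
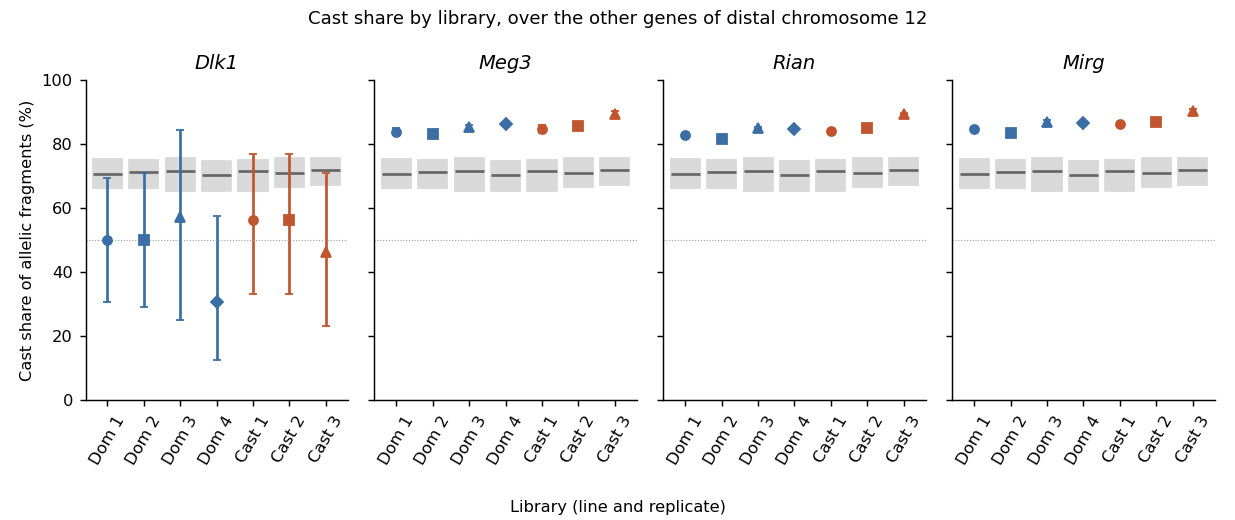
Cast share of Dlk1, Meg3, Rian and Mirg in each library, with Wilson 95% intervals (points; colour for the line, shape for the replicate). Grey boxes span the lower to upper quartile of the other distal chromosome 12 genes in the same library, with the median as a line. Meg3, Rian and Mirg lie above every box, at 81.4% to 90.3%, and the Dlk1 points lie below every median, with wide intervals.

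Dlk1 had few allelic fragments, 22, 18, 7 and 13 in iXist-ChrX-Dom and 16, 16 and 13 in iXist-ChrX-Cast. Its Cast share was 50.0%, 50.0%, 57.1% and 30.8% against 56.3%, 56.3% and 46.2%. All 7 values lay below the distal median of their library. Pooled over libraries, 52 of 105 fragments were Cast, or 49.5% (Wilson 95% interval 40.1% to 58.9%). The interval excludes the distal median and includes an equal split of fragments, itself a lower Cast share than the distal median.

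Rtl1 and Dio3 did not reach the minimum of allelic fragments and were not tested. Pooled over the libraries, 20 of 23 allelic Dio3 fragments were Cast, or 87.0% (Wilson 95% interval 67.9% to 95.5%), which still includes the distal median. For Rtl1 it was 9 of 13, or 69.2% (42.4% to 87.3%), so no departure from the distal genes was detectable at this depth. Dio3os, the antisense RNA next to Dio3, had 94 of 114 Cast fragments, or 82.5% (74.5% to 88.3%). 6430411K18Rik had at most 1 allelic fragment in any library and gives no share.

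For each gene the log2 odds of Cast over Dom, less the median log2 odds of the distal reference in the same library, were averaged over both lines and tested with limma. All 4 members with enough fragments were called. 3 were higher, beside 33.6% of the 241 distal genes called higher, and Dlk1 was lower, beside 32.0% called lower. The call itself is thus common among distal genes, and the size of the departure is what the members are described by.

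Mirg lay above the distal median by 1.40 (SE 0.06, limma adjusted p = 1.2e-09), which is 2.64 times its odds. Meg3 lay above it by 1.28 (SE 0.06, limma adjusted p = 1.2e-09) and Rian by 1.19 (SE 0.07, limma adjusted p = 1.0e-08), or 2.43 and 2.28 times the odds. Dlk1 gave -1.31 (SE 0.25, limma adjusted p = 0.00047), or 0.403 times the odds. Dio3os gave 1.00 (SE 0.41, limma adjusted p = 0.046), and 0.70 (limma adjusted p = 0.18) with the replicate block. Measured from equal alleles instead of the distal median, Dlk1 gave -0.01 (SE 0.26, limma adjusted p = 0.969) and was not called.

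By mean Cast share, 5 of the 237 other distal genes were above Mirg (86.4%), 5 above Meg3 (85.4%) and 6 above Rian (84.5%). They were Gm21319, Asb2, Serpina3m, Macc1 and Tc2n, and for Rian also Acot6, with median allelic counts between 19 and 255 a library. Among the 93 distal genes with at least 400 allelic fragments in every library, a limit chosen after the values were seen, the highest share was 81.0% (Hsp90aa1). For Dlk1 12 distal genes were lower, the lowest being Crip2 at 7.82%.

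**Figure D4:**
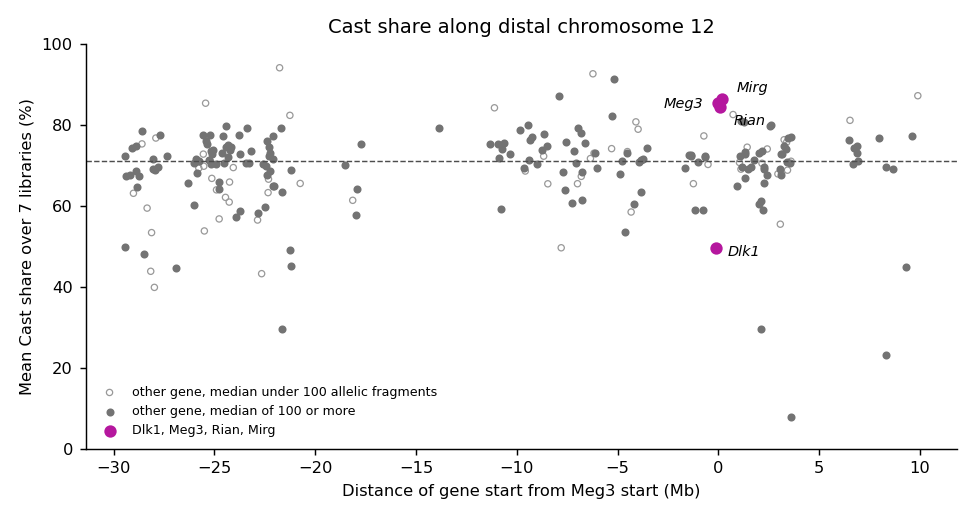
Mean Cast share over the 7 libraries of each distal chromosome 12 gene with enough allelic fragments, by the distance of its start from the start of Meg3 (Mb). Filled grey points have a median of 100 or more allelic fragments a library, open ones fewer, and the dashed line is the median of the other distal genes, 71.0%. Meg3, Rian and Mirg lie near 85% and Dlk1, 88.2 kb before Meg3, at 49.5%.

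The genes flanking the cluster lay closer to the distal median. The nearest 5 genes with enough fragments on the Dlk1 side, Yy1, Slc25a29, Wars, Wdr25 and Begain, had mean Cast shares of 58.9%, 77.3%, 72.2%, 72.1% and 70.2%. On the Dio3 side Ppp2r5c, B930059L03Rik, Dync1h1, 1700001K19Rik and Hsp90aa1 had 65.0%, 70.7%, 72.3%, 69.1% and 81.0%. Begain ends 385 kb before Dlk1 and Ppp2r5c starts 166 kb after Dio3. None of the 10 reached the share of Rian, and none fell to that of Dlk1. The largest departures among them, on the log2 odds, were 0.79 for Hsp90aa1 (limma adjusted p = 2.6e-09) and -0.77 for Yy1 (limma adjusted p = 1.2e-09).

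By the rule that a mean Cast share above 90% or under 10% counts as use of essentially 1 allele, 0 of the 4 members qualified. Of the other distal genes 1.69% qualified, and of 12496 other autosomal genes 1.29%. Mirg in replicate 3 of iXist-ChrX-Cast was the only single value above 90% among Meg3, Rian and Mirg. Fragments of the weaker allele were plentiful, for example 4808 to 10779 Dom fragments of Rian per library.

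The summed fibroblast markers, for comparison, had a Cast share of 26.2% to 36.0% per library. The list gave 62.7 to 80.2 CPM in all, and Dlk1 1.23 to 2.19. The part of fibroblast RNA in the Dlk1 share or in the Dom fragments of Meg3, Rian and Mirg was not tested.

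The third comparison asked whether the allelic share differed between the lines. limma on the log2 odds, adjusted over 12932 genes, called 0 of the 4 members, beside 16.4% of all genes called. Rian and Mirg had an unadjusted p under 0.05, and edgeR on the allelic counts called Mirg, among 2252 of the 12932 genes. The difference, iXist-ChrX-Dom minus iXist-ChrX-Cast, was -0.25 for Meg3 (SE 0.12, limma adjusted p = 0.22), -0.30 for Rian (SE 0.13, limma adjusted p = 0.16) and -0.30 for Mirg (SE 0.12, limma adjusted p = 0.13). For Dlk1 it was -0.34 (SE 0.55, limma adjusted p = 0.81).

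Deviations of libraries with the same replicate number correlated at 0.34, 0.28 and 0.47 for numbers 1 to 3. Replicates 1 and 2 of iXist-ChrX-Dom each correlated better with the other number, so this pairing is uncertain. With the replicate number as a block the calls changed, and the difference between the lines then rested on numbers 1 to 3. Replicate 4, present only in iXist-ChrX-Dom, adds nothing to that difference. Meg3 then gave -0.30 (SE 0.08, limma adjusted p = 0.017), Rian -0.34 (SE 0.06, limma adjusted p = 0.0022) and Mirg -0.34 (SE 0.06, limma adjusted p = 0.0013). All 3 were lower in iXist-ChrX-Dom, beside 6.98% of all genes called in that direction. Without replicate 4 of iXist-ChrX-Dom and without the block, the 3 differences were the same and none was called. In shares the difference was small. Between lines within the first sample set it was -1.67, -2.30 and -2.37 percentage points for Meg3, Rian and Mirg.

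Within the second set the differences were -3.71, -4.38 and -3.62 points, where iXist-ChrX-Cast is represented by replicate 3 alone. Within each set the lines did not overlap for any of the 3 RNAs, as was the case, in the same direction, for 14.4% of all genes, while across sets they did. With replicates 1 and 2 only, Rian and Mirg were called (limma adjusted p = 0.0037 and 0.0032) and Meg3 was not (0.067), with 2134 of 12692 genes called, 896 of them lower in iXist-ChrX-Dom. Without the block and without replicate 3 of iXist-ChrX-Cast, the differences shrank to -0.06, -0.09 and -0.12 and none was called.

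The flanking genes did not all follow. Wars and Wdr25, 559 and 424 kb before Dlk1, were also lower in iXist-ChrX-Dom, by -0.44 and -0.38 (limma adjusted p = 0.0020 and 0.0023, without the block). Yy1, on the same side, gave -0.09 (limma adjusted p = 0.56), and Slc25a29 and Begain were not called either. Of the 5 genes beyond Dio3 none was called, and Dync1h1 and Hsp90aa1 gave 0.01 each (limma adjusted p = 0.97 and 0.95).

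Split into alleles, the Dom fragments of Rian, scaled like CPM, were 380, 438, 365 and 317 in iXist-ChrX-Dom and 425, 395 and 241 in iXist-ChrX-Cast. Its Cast fragments were 1820, 1916, 2055 and 1765 against 2206, 2219 and 1995. The high Cast share of replicate 3 of iXist-ChrX-Cast thus went with the lowest Dom level of the 7, and its Cast level was in the middle. For Meg3 the Dom fragments averaged 43.6 ± 5.32 (SD, n = 4) against 28.7 ± 3.92 (SD, n = 3) CPM and did not overlap between lines, as for 6.41% of all genes in that direction. For Mirg they averaged 86.1 ± 24.7 and 82.5 ± 23.6 and overlapped across sets, while within each set they were higher in iXist-ChrX-Dom without overlap. The share of all genes that did so within both sets was not counted, and the second set holds only replicate 3 of iXist-ChrX-Cast.

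**Figure D5:**
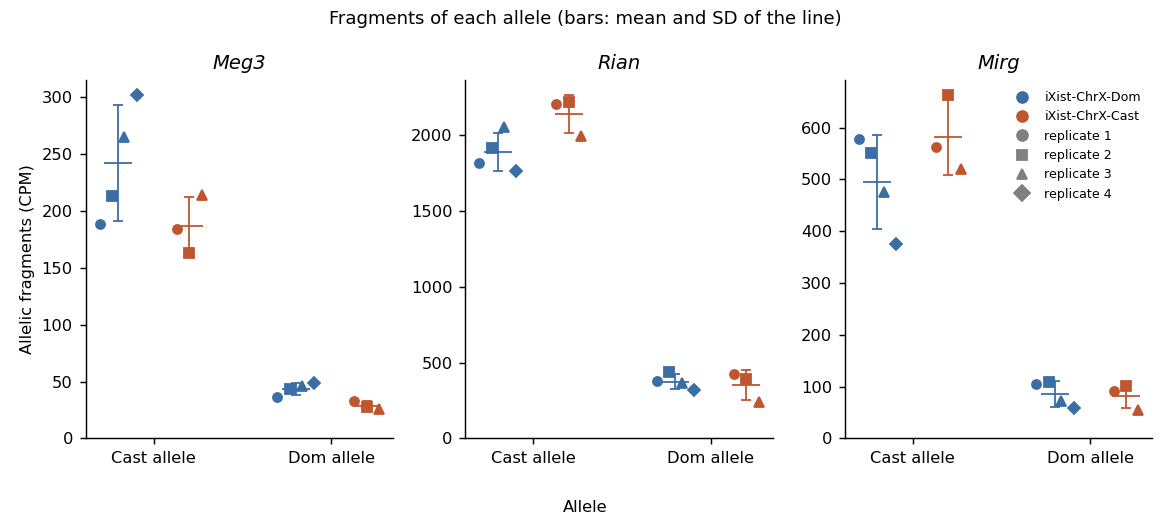
Fragments, scaled like CPM, assigned to the Cast and to the Dom allele of Meg3, Rian and Mirg in each library (colour for the line, shape for the replicate), with the mean and SD of each line. For all 3 genes the Cast allele lies well above the Dom allele, and replicate 3 of iXist-ChrX-Cast has the lowest Dom value.

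Genes that keep or read imprints were measured next to the cluster. Of 22 such genes, all tested, edgeR on total counts called 0 between the lines, beside 2.92% of all genes, and DESeq2 called 0. Aff3 and Zfp281 had an unadjusted p under 0.05. The median log2 difference of the list was -0.05, beside -0.003 over all genes. Zfp57, the zinc finger protein that protects methylated imprints, stood at 233 ± 28.4 (SD, n = 4) CPM in iXist-ChrX-Dom and 273 ± 31.5 (SD, n = 3) in iXist-ChrX-Cast, a log2 difference of -0.23 (SE 0.13, edgeR adjusted p = 0.379). Its partner Trim28 stood at 509 and 536 CPM, the DNA methyltransferase Dnmt3a at 75.6 and 75.5, and the demethylating enzyme Tet1 at 1947 and 2084. Aff3, known to bind near the imprinting control region of this cluster, stood at 126 and 101 CPM. Dppa3, which protects methylation in the early embryo and acts at this locus during reprogramming, stood at 7.42 and 6.62. By Cast share between the lines, limma called 2 of the 22, beside 16.4% of all genes called, and edgeR on allelic counts called 2.

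The pathways of the coding members were represented by 12 Notch genes, as Dlk1 resembles Notch ligands, and by 7 thyroid hormone genes for Dio3. Of 9 Notch genes tested, edgeR called 0, 4 had an unadjusted p under 0.05, and DESeq2 called Hes1. With the replicate block, beside 11.8% of all genes called, the ligand Jag1 and the receptors Notch2 and Notch4 were higher in iXist-ChrX-Dom, and the target Hes1 was lower. Notch1 stood at 40.0 and 42.2 CPM. The median log2 difference of the 9 was 0.17, beside -0.003 over all genes.

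Of 3 thyroid hormone genes tested, edgeR on total counts called 0. Thra, a thyroid hormone receptor, had an unadjusted p under 0.05, at 7.25 against 4.47 CPM and a log2 difference of 0.70 (SE 0.17, edgeR adjusted p = 0.054). DESeq2 called it, as did edgeR with the block (edgeR adjusted p = 0.023). The median log2 difference of the 3 was 0.03. The activating deiodinase Dio2 had 1 to 3 fragments per library, and Ttr, the thyroid hormone carrier, was at 0 in every library. By Cast share between the lines, limma called 1 of the 3 tested, beside 16.4% of all genes called.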

How the data were processed

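ChrRNA-seq libraries of 2 lines were analysed, iXist-ChrX-Dom (n = 4) and iXist-ChrX-Cast (n = 3). Groups came from the sample titles. For replicates 3 and 4 of iXist-ChrX-Dom the description field and the column name give a shorter induction than the title. The title was followed. The authors call the iXist-ChrX-Dom samples replicate experiments and those of iXist-ChrX-Cast replicates. Whether each was a separate culture is not spelled out, so p-values measure the spread between these libraries.

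The authors removed rRNA reads with Bowtie2 2.3.2, aligned to N-masked mm10 with STAR 2.4.2a, split alleles with SNPsplit and deposited raw counts of fragments per gene from featureCounts 1.5.2, in total and per allele, strand-specific and over whole transcripts. The allele labels of the count columns were checked against the authors' deposited fraction tables, and 2181 of 2181 shared values were equal within 1e-06. Those fractions were otherwise not used.

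Total counts were tested with edgeR 4.0.16 (filterByExpr, TMM, line as the only term). CPM values use TMM-scaled library sizes. Allelic shares were tested with limma 3.58.1 on log2((Cast + 0.5)/(Dom + 0.5)) for genes with at least 10 allelic fragments in over 80% of libraries, between lines and, less the library's median over the other genes starting at 80 Mb or beyond on chromosome 12, against 0. Calls used an adjusted p under 0.05 over all genes fitted. These fits, DESeq2 on total counts and edgeR on allelic counts were tested on simulated data. The fits with the replicate block or the sample set as covariate were not. With the block, replicate 4 of iXist-ChrX-Dom has no partner and adds nothing to the difference between the lines. DESeq2 1.42.0 and the other alternatives are given in the closing section. Deviations of libraries with the same replicate number correlated at 0.34, 0.28 and 0.47 for numbers 1 to 3, across genes. The number was used as a block in alternative fits only. That block rests on the data and not on the labels, and replicates 1 and 2 of iXist-ChrX-Dom each correlated better with the other number. Number 3 is the only iXist-ChrX-Cast library of the second sample set, so pairs and sample sets cannot be told apart there.

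Named genes were the 6 members, the other genes of the interval, the nearest 5 genes with enough fragments on each side, the 2 genes closest in pattern to each member, and, from the gene lists, those called and 8 regulators. Thra, Ttr, Zfp281, Sox1 and the listed genes called only with the block were named after their values were seen, as were the distal genes above the members. The members and lists were chosen with earlier results of these data known.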

Additional observations from a re-analysis of the deposited data

Results flagged for a closer look

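Among the 10 sets of values screened in the 4 libraries of iXist-ChrX-Dom, 6 levels and 4 Cast shares, 1 held a library that stood apart. Dlk1 in replicate 3 of iXist-ChrX-Dom was at 1.23 CPM, and its gap to the nearest library took 0.834 of the whole range, just past Dixon's 95% limit for 4 samples, which chance alone exceeds in about 1 group in 20. The value rests on 23 fragments, against 41 to 50 in the other libraries of the line. Groups of 3 were not screened.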

How the results depend on the processing

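Total counts called 0 members under every alternative run: RLE size factors, DESeq2, no expression filter, the replicate block, the sample set as covariate, replicates 1 and 2 only, and leaving out each library. The number of all genes called was less stable, 443 as reported, 1098 with DESeq2, 1794 with the replicate block, 2398 with the sample set, 1685 with replicates 1 and 2 and 18 (without iXist-ChrX-Cast replicate 2) to 1206 (without iXist-ChrX-Cast replicate 3) with a library left out. Dlk1, at -0.03, changed sign to 0.0030 with the sample set, to 0.080 with replicates 1 and 2, and ranged from -0.11 to 0.12 with a library left out, above 0 without iXist-ChrX-Dom replicate 3 or iXist-ChrX-Cast replicate 2. Other members kept their sign but moved in size, all uncalled. Over all these alternatives Dio3 ranged from -1.05 to -0.32, Meg3 from 0.15 to 0.43, Rian from -0.23 to -0.09 and Mirg from -0.24 to -0.01.

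For the Cast share between lines, 0 members were called as reported, 1 by edgeR on allelic counts, 3 with the replicate block, 3 with the sample set and 2 with replicates 1 and 2 only. The genes called in all were 2124, 2252, 2070 and 2263 of 12932 and, in the last, 2134 of 12692. Leaving out a library gave 0 to 2, the 2 being Rian and Mirg without iXist-ChrX-Cast replicate 1 (limma adjusted p = 0.045 and 0.047). The cause was not tested. An offset of 2 or a minimum of 30 fragments gave 0.

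Against distal chromosome 12, 4 members were called under every alternative except 3 against equal alleles, where Dlk1 was lost, and 3 at a minimum of 30 fragments, where Dlk1 was not fitted. Against equal alleles 221 distal genes were called higher and 7 lower, beside 81 and 77 as reported. From 100 Mb on, with 124 genes fitted, 70 were called in place of 158. For use of essentially 1 allele, limits of 20% and 80% gave 3 members and 16 distal genes in place of 0 and 4. Limits of 5% and 95%, pooled fragments and leaving out a library gave 0 members. The depth limits Dlk1, Rtl1 and Dio3 in particular.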
